A study of Mus musculus with 5 samples.

Results

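Lymphocytes that begin to grow need amino acids, and the genes described here take them up, convert them and pass their carbon to folate. The 35 genes were given by name: 12 carriers of amino acids in the plasma membrane, 7 enzymes of asparagine, glutamine and transamination, 3 of serine synthesis, 5 of the folate cycle, 2 of proline synthesis, 2 of transsulfuration, and ATF4 with 3 genes it is known to act on. The rule for choosing them names genes and no measured value, but they were proposed with earlier results of these data known. Of the 35, 34 were measured among 19938 genes, each through 1 probe set, and the proline enzyme gene Pycr1 was not analysed here. The cells were lung natural helper cells, now called group 2 innate lymphoid cells, sorted by flow cytometry from naive C57Bl/6 mice 6 to 8 weeks old. They lacked lineage markers, carried Sca-1, CD127 and CD25, and had little or no c-Kit. Arrays of 3 unstimulated samples, lysed right after sorting, were set against arrays of 2 samples that had spent 3 days in culture with PMA at 60 ng/ml and ionomycin at 500 ng/ml. PMA switches on protein kinase C, ionomycin lets calcium into the cell, and no sample was cultured without them, so culture and stimulation cannot be told apart. No label gives the sex, the number of mice behind a sample or separate cultures, and the p-values below rest on a spread between samples that may be technical only.

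Large neutral amino acids such as leucine enter lymphocytes mainly through exchangers made of a light chain of the SLC7 family and the common heavy chain encoded by Slc3a2, and glutamine and alanine enter through carriers of the SLC1 and SLC38 families. Serine is made from a glycolytic intermediate in 3 steps, and serine hydroxymethyltransferases move a carbon unit from serine to folate, in the cytosol and in mitochondria, for the synthesis of purines and thymidylate. ATF4 is a transcription factor that is translated more when amino acids run short or the endoplasmic reticulum is stressed, and many of the genes described here are among its known targets. It binds a composite element whose letters can be written TGATGNAA. Promoters, 250 bases before to 50 after an annotated start, came from RefSeq (GRCm38.p6) for 31 of the 35 genes. On either strand the element was found in 8 of these 31 genes (25.8%), against 4.51% of 27025 genes with a promoter in the same table. The stricter spelling TGATGCAA, every match of which is also a match of the first, was found in 6 (19.4%) against 1.03%. The E-box CACGTG, which is known to bind MYC and reads the same on both strands, was found in 3 (9.68%) against 8.09%. These are matches of letters and not sites of binding. Known targets of ATF4 were among the genes chosen by name, so a higher share of its element was partly built into the list. For both spellings, the contrast with all genes is therefore not a test of that element. Genes with several promoters also had more windows in which a match could fall, and the shares by gene were not adjusted for this.

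The 6 measured genes with a match and the largest differences between the groups are shown with the TGATGNAA match, or its reverse complement, in capitals, 5′ to 3′ on the gene's strand. They are shown because they place the element beside the values of each gene: Asns has the second largest difference of all 34 genes, and the other 5 differ by at most 0.31 on the log2 scale.
Asns, chr6:7693200-7693268, minus strand: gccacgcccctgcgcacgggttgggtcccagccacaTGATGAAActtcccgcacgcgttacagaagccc
Slc7a11, chr3:50443617-50443715, minus strand: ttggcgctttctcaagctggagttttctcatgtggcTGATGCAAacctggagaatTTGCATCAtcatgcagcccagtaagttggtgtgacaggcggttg
Slc1a4, chr11:20332704-20332753, minus strand: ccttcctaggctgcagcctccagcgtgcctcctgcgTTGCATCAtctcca
Slc7a7, chr14:54417935-54418121, minus strand: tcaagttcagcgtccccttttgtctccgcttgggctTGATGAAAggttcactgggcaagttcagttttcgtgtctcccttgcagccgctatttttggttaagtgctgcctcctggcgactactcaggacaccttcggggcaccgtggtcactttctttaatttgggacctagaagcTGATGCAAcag
Chac1, chr2:119351013-119351092, plus strand: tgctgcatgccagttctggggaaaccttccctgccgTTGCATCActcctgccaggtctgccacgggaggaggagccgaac
Trib3, chr2:152344028-152344057, minus strand: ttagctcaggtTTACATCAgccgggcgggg
The match began 23 bases before the start in Asns, 4 before it in Slc1a4, 193 before it in Chac1 and 15 bases into the transcript in Trib3, of which 30 bases are shown. Slc7a11 had a pair of matches, 66 and 47 bases before its start, and the promoter of Slc7a7 shown, 1 of 5 in the table for that gene, had matches 141 bases and 1 base before its start. The others with a match were Got1, 102 bases before the start, and Pycr1, 103 bases before it. The promoters of Bcat1 and Glul held neither the element nor the E-box, which says only that these letters are not in those windows.

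Values are log2 expression levels from RMA, robust multi-array average, a method that corrects, normalizes and summarises the probes of an array, and differences are PMA and ionomycin minus unstimulated with the standard error (SE) of limma's fit. The deposited levels had a median of 5.64 over all probe sets and quartiles of 4.49 and 7.07. A gene was called where its p, adjusted by Benjamini-Hochberg over all 19938 genes, was under 0.05. Bcat1 rose and Glul fell, and no other of the 34 genes was called. Over all genes, 147 (0.737%) were called higher and 192 (0.963%) lower. At an unadjusted p under 0.05 stood 12 higher and 3 lower of the 34, and 2262 higher and 1711 lower of all 19938 genes (19.9% in either direction). On both stimulated arrays 19 of the 34 genes (55.9%) stood above all 3 unstimulated arrays and 3 (8.82%) stood below them, against 18.6% and 14.0% of all genes. The median difference was 0.28 over the 34 genes and 0.00 over all genes. It was 0.19 without unstimulated array 3 and 0.34 without unstimulated array 2. In all, 26 of the 34 had a difference above 0, as had 53.3% of all genes. The 34 genes and all genes were not alike in level or in repeated values. A mean above the median of all probe sets was found in 27 of the 34 and in 10356 of all 19938 genes. Values repeated between arrays were found in 11 of the 34 and in 62.0% of all genes. Shares among genes of like level were not computed.

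**Figure D1:**
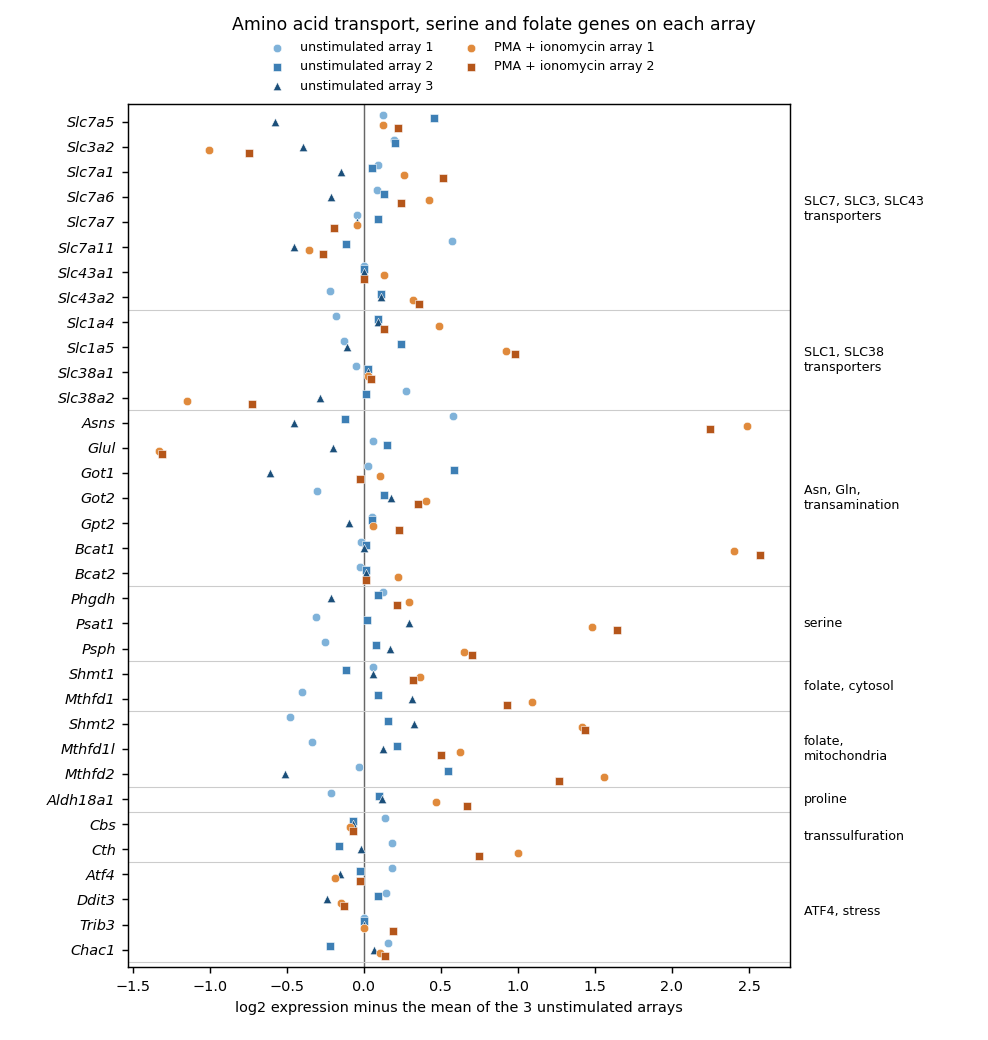
Each row is a gene and each point an array, placed at its log2 level minus the mean of the 3 unstimulated arrays (blue, unstimulated; orange, PMA and ionomycin). Bcat1 and Asns lie more than 2 log2 units to the right on both stimulated arrays, Glul lies more than 1 to the left, and the ATF4 group stays within 0.5 of 0 on every array.

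The genes Bcat1 and Asns had the largest differences of the 34. Bcat1 codes for the cytosolic aminotransferase that takes the amino group off leucine, isoleucine and valine. Its level was 5.06, 5.09 and 5.08 on unstimulated arrays 1, 2 and 3, and 7.48 and 7.65 on stimulated arrays 1 and 2. The unstimulated values lay within 0.03 of each other and below the median of all probe sets, so the 5.6-fold rise (2.49 ± 0.06 SE, adjusted p = 0.0166) may be a lower bound. Its mitochondrial relative Bcat2 read 6.45, 6.49 and 6.49 against 6.70 and 6.49, groups that overlap (0.12 ± 0.07, adjusted p = 0.473). Asns codes for asparagine synthetase, which makes asparagine from aspartate with nitrogen from glutamine. It read 7.30, 6.60 and 6.27 unstimulated and 9.21 and 8.97 stimulated. The groups lay 1.67 apart, but the unstimulated arrays themselves spread over 1.04, and the 5.16-fold difference (2.37 ± 0.37 SE) did not pass the test (adjusted p = 0.0808). Without unstimulated array 1 or 2, Bcat1 kept its difference (2.48 and 2.49) and lost its call (adjusted p = 0.0714 and 0.0907).

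Glul codes for glutamine synthetase, which joins ammonia to glutamate. It read 9.88, 9.97 and 9.62 unstimulated and 8.49 and 8.51 stimulated, so that every unstimulated array stood more than 1 unit above both stimulated ones. It fell 2.51-fold (-1.33 ± 0.12 SE, n = 3 and 2 arrays, adjusted p = 0.0456). A further probe set named for Glul read 7.92, 7.75 and 7.65 against 6.36 and 6.71, in the same direction at a lower level. The call held without unstimulated array 3 (adjusted p = 0.0445) and was lost without unstimulated array 1 (0.135), unstimulated array 2 (0.134), stimulated array 1 (0.132) or stimulated array 2 (0.117), with differences from -1.25 to -1.43 over those 5 fits.

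The remaining aminotransferase genes differed by less. Got1 and Got2 code for the cytosolic and mitochondrial aspartate aminotransferases of the malate-aspartate shuttle. Got1 had the widest spread of any of the 34 genes among unstimulated arrays (8.72, 9.28 and 8.09), and its stimulated levels of 8.80 and 8.67 lay within it. Got2 stood at 7.11, 7.55 and 7.59 against 7.82 and 7.77, a difference of 0.38 ± 0.18 SE (adjusted p = 0.397) that was 0.22 without unstimulated array 1. Its groups did not overlap, and another probe set named for Got2 also stood higher on both stimulated arrays (7.5 and 7.47 against 6.65, 7.10 and 7.27). Gpt2, the mitochondrial alanine aminotransferase gene, read 5.12, 5.12 and 4.97 against 5.13 and 5.30, below the median of all probe sets on every array (adjusted p = 0.472).

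**Figure D2:**
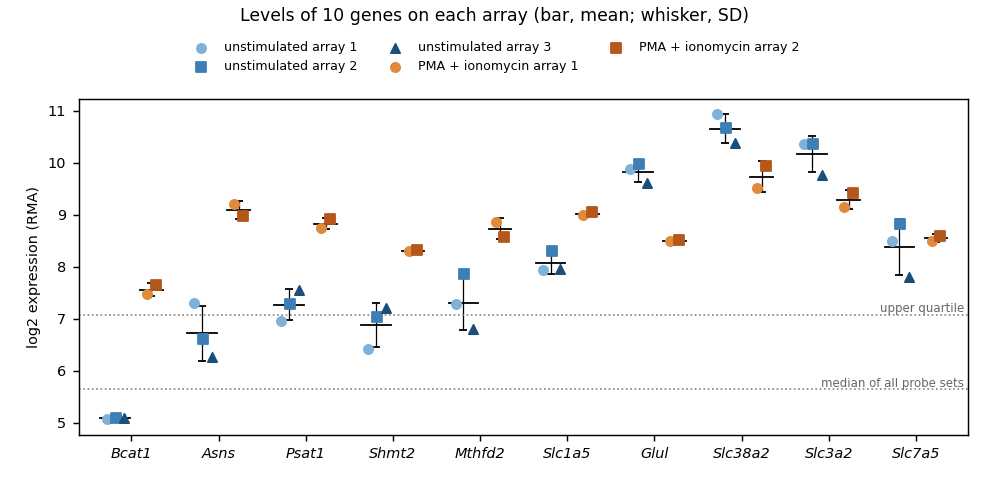
Log2 expression (vertical axis) of 10 genes on each array, with the mean of each group as a bar and the SD as a whisker (3 unstimulated arrays, 2 stimulated); dotted lines mark the median and upper quartile of all probe sets. Bcat1 stands at 5.08 ± 0.02 unstimulated and 7.56 ± 0.12 stimulated, Glul at 9.82 ± 0.18 and 8.50 ± 0.02, and for Slc7a5 the groups overlap.

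Genes of serine synthesis stood higher on every stimulated array than on any unstimulated one, as did 18.6% of all genes. None of these serine genes was called. Psat1 codes for phosphoserine aminotransferase, the middle step. It read 6.96, 7.29 and 7.56 unstimulated and 8.75 and 8.91 stimulated, a 2.95-fold difference (1.56 ± 0.21 SE, adjusted p = 0.0683). The gap between the groups was 1.19, wider than the unstimulated range of 0.59. Psph, the phosphatase gene of the last step, read 6.88, 7.21 and 7.30 against 7.78 and 7.83 (0.68 ± 0.15, adjusted p = 0.130). Phgdh, which codes for the dehydrogenase of the first step, read 6.16, 6.13 and 5.82 against 6.33 and 6.25. That difference of 0.26 ± 0.13 (adjusted p = 0.426) was the smallest of the 3, its groups lay only 0.09 apart, and it was 0.15 without unstimulated array 3.

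The 5 folate genes were likewise higher on both stimulated arrays than on all unstimulated ones, as were 18.6% of all genes, and none was called. Shmt2, the mitochondrial serine hydroxymethyltransferase gene, read 6.41, 7.04 and 7.21 against 8.30 and 8.32, a 2.69-fold difference (1.43 ± 0.29 SE, adjusted p = 0.111). Shmt1, its cytosolic counterpart, read 5.82, 5.65 and 5.82 against 6.13 and 6.08 (0.34 ± 0.07, adjusted p = 0.118). The log2 level of Shmt2 over that of Shmt1 was 0.58, 1.39 and 1.38 on unstimulated arrays and 2.17 and 2.25 on stimulated ones, so the mitochondrial gene differed by 1.09 more than the cytosolic one. An exact two-sided permutation test of that value gave p = 0.1, the smallest that 3 against 2 arrays with 10 splits can give, and 0.2 adjusted over the 8 pairs compared. Mthfd2 codes for a mitochondrial enzyme of dividing and developing cells that oxidises the folate-bound carbon. It read 7.28, 7.86 and 6.80 unstimulated and 8.87 and 8.58 stimulated (1.41 ± 0.37, adjusted p = 0.166). Its unstimulated arrays spread over 1.06, more than the gap of 0.72 that separated the groups.

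Mthfd1l, whose product releases formate in mitochondria, read 7.04, 7.59 and 7.5 against 8.00 and 7.88 (0.56 ± 0.20 SE, adjusted p = 0.271). Mthfd1 codes for the cytosolic enzyme that takes that formate up. It read 5.22, 5.71 and 5.93 against 6.71 and 6.55, a 2.02-fold difference (1.01 ± 0.25, adjusted p = 0.152). The difference of Mthfd1l was thus 0.45 smaller than that of its cytosolic partner (exact permutation p = 0.2, 0.320 adjusted over the 8 pairs), and that of Mthfd2 was 0.40 larger (exact p = 0.8, 0.914 adjusted), which turned to -0.01 without unstimulated array 3. The median of the 3 mitochondrial genes was 1.41 and that of the 2 cytosolic genes 0.68. Leaving out unstimulated array 3 gave a mitochondrial median of 1.15, and using it as the lone unstimulated array gave 1.11. Of 14 genes of dividing cells 13 were measured, and all 13 had a difference above 0, as had 53.3% of all genes. None was called by limma. At an unadjusted p under 0.05 stood 2 higher and 0 lower, against 2262 and 1711 of all 19938 genes. Of the 13 genes, 6 stood above all unstimulated arrays (18.6% of all genes) and 7 had overlapping groups. Their summed level on the linear scale was 2730, 3020 and 3230 on unstimulated arrays 1 to 3 and 4330 and 3320 on stimulated arrays 1 and 2. The part of that difference in the folate values was not tested. Of the 5 folate genes, 4 stood higher on stimulated array 1 than on stimulated array 2, by 0.05 to 0.29, and Shmt2 did not. The order of 2 arrays cannot tell whether these genes follow that sum.

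**Figure D3:**
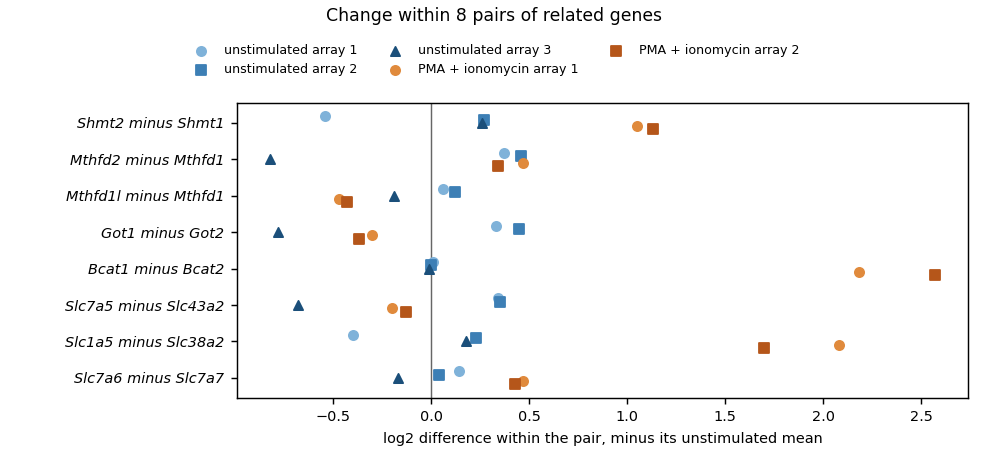
For 8 pairs of related genes, the log2 level of the first minus the second on each array, minus the mean of that value over the 3 unstimulated arrays. Bcat1 minus Bcat2 changed by 2.37, Slc1a5 minus Slc38a2 by 1.89 and Shmt2 minus Shmt1 by 1.09, with no overlap of the groups, whereas Got1 minus Got2 and Slc7a5 minus Slc43a2 overlap.

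In proline synthesis, Aldh18a1, which codes for the enzyme of the first steps from glutamate, read 6.08, 6.39 and 6.41 against 6.76 and 6.96 (0.57 ± 0.14 SE, adjusted p = 0.154). In transsulfuration, which turns homocysteine into cysteine, Cth was low in both groups and read 4.79, 4.45 and 4.59 against 5.61 and 5.36. Its groups did not overlap, and the 1.83-fold difference (0.87 ± 0.14, adjusted p = 0.0862) was not called. Unstimulated levels of Cth lay near the lower quartile of deposited levels (4.49), and its fold too may be a lower bound. Cbs, the gene of the step before, had the same value of 5.53 on unstimulated arrays 2 and 3 and stimulated array 2, with 5.74 and 5.51 on the others (-0.08 ± 0.08, adjusted p = 0.617).

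Of the 4 carriers of the SLC1 and SLC38 families, Slc1a5 stood higher and Slc38a2 lower on both stimulated arrays, and neither was called. Slc1a5 codes for ASCT2, an exchanger of glutamine and other small neutral amino acids. It read 7.94, 8.31 and 7.96 unstimulated and 8.99 and 9.05 stimulated, a 1.93-fold difference (0.95 ± 0.14 SE, adjusted p = 0.0763). Slc38a2 codes for SNAT2, a sodium-coupled carrier of small neutral amino acids. It read 10.94, 10.68 and 10.38 against 9.52 and 9.94, lower on both stimulated arrays (-0.93 ± 0.24, adjusted p = 0.156). The difference between the pair changed by 1.89 on the log2 scale, with stimulated arrays above all unstimulated ones (exact permutation p = 0.1, 0.2 adjusted over the 8 pairs). Slc38a1, which codes for the related carrier SNAT1, read 9.79, 9.87 and 9.87 against 9.87 and 9.89 (0.04 ± 0.03, adjusted p = 0.546). The value 9.87 was repeated on those arrays, which makes the SE small. A further probe set named for Slc38a1 read 8.82, 9.27 and 9.08 against 9.01 and 8.85, groups that overlap. Slc1a4, which codes for ASCT1, read 5.02, 5.29 and 5.29 against 5.69 and 5.33 (0.31 ± 0.16, adjusted p = 0.431). Its difference was 0.13 without stimulated array 1 and 0.49 without stimulated array 2.

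Slc3a2, the gene of the common heavy chain CD98, was lower on stimulated arrays, with 9.16 and 9.42 against 10.36, 10.37 and 9.77 (-0.88 ± 0.25 SE, adjusted p = 0.183). Its light chain partner Slc7a5, which codes for the leucine transporter LAT1, did not follow it. Slc7a5 read 8.50, 8.83 and 7.80 unstimulated and 8.50 and 8.60 stimulated, groups that overlap (0.17 ± 0.36, adjusted p = 0.8), and its difference was -0.12 without unstimulated array 3. Slc7a6, another light chain, for cationic and neutral amino acids, read 7.58, 7.63 and 7.28 against 7.92 and 7.74 (0.33 ± 0.14, adjusted p = 0.360). Its close relative Slc7a7 was below the median of all probe sets on every array, between 5.29 and 5.58. The difference between that pair changed by 0.45 with no overlap (exact permutation p = 0.1, 0.2 adjusted over the 8 pairs). Slc7a11, the light chain of the cystine and glutamate exchanger, read 6.31, 5.62 and 5.28 against 5.38 and 5.47, and only unstimulated array 1 stood apart (-0.31 ± 0.36, adjusted p = 0.654; -0.02 without that array and -0.54 without unstimulated array 3). Slc7a1, whose product takes up arginine and lysine, read 7.96, 7.92 and 7.72 against 8.13 and 8.38 (0.39 ± 0.12, adjusted p = 0.213). Of the facilitated carriers of large neutral amino acids, Slc43a2 read 5.84, 6.17 and 6.17 against 6.38 and 6.42 (0.34 ± 0.13, adjusted p = 0.291), and Slc43a1 stood at 4.81 on 4 arrays and 4.94 on stimulated array 1. The median difference of the 8 genes of the SLC7, SLC3 and SLC43 families was 0.12, and it was -0.03 without unstimulated array 3 and 0.23 without unstimulated array 2.

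**Figure D4:**
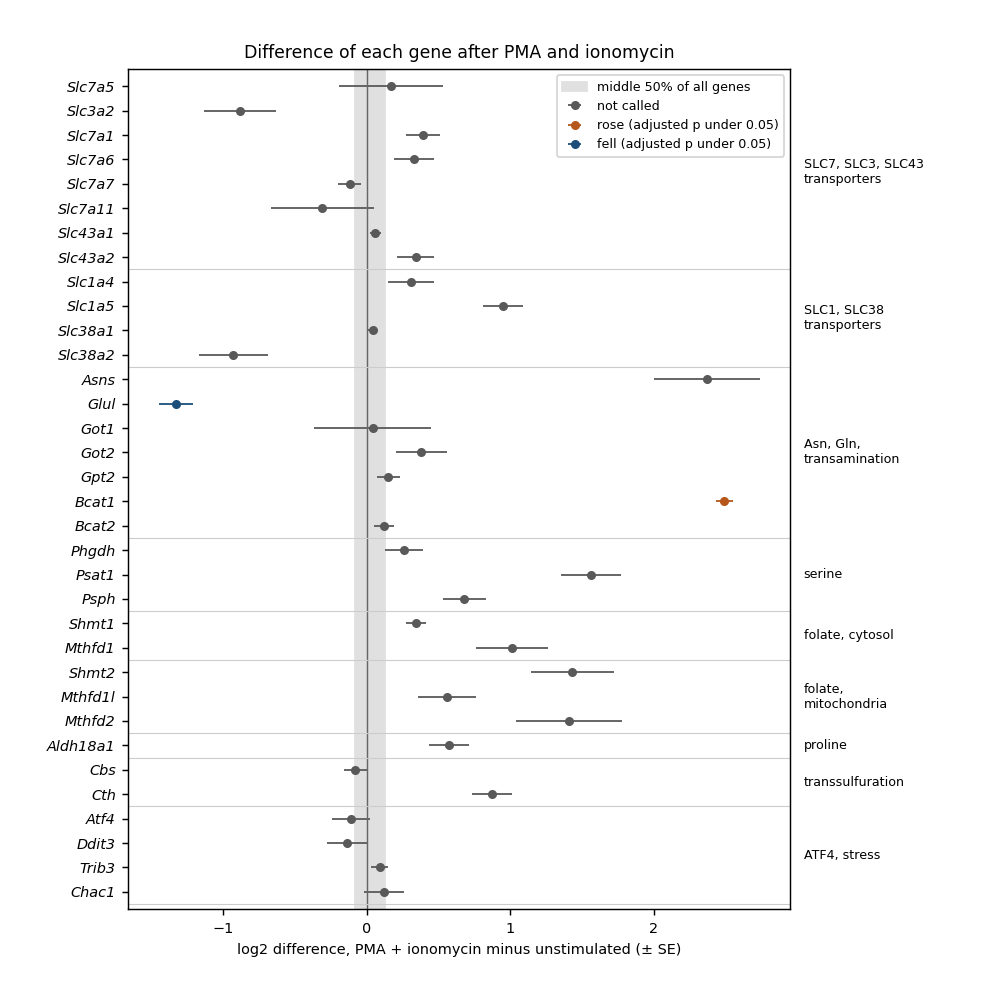
Log2 difference of each measured gene, PMA and ionomycin minus unstimulated, with its SE, in the order of the genes' roles; the grey band holds the middle 50% of all genes (-0.08 to 0.13). Bcat1 (2.49) and Glul (-1.33) are the called genes, all serine and folate genes lie to the right of the band, and the 4 genes of the ATF4 group lie between -0.14 and 0.12.

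ATF4 and the stress genes named as its targets had overlapping groups throughout, as had 13449 of all 19938 genes. Atf4 itself, whose product is controlled mainly at translation, read 9.35, 9.14 and 9.01 against 8.98 and 9.14 (-0.11 ± 0.13 SE, adjusted p = 0.654). Ddit3, which codes for CHOP, a factor of prolonged stress, read 8.53, 8.48 and 8.15 against 8.24 and 8.26 (-0.14 ± 0.14, adjusted p = 0.616). Chac1, whose enzyme breaks down glutathione, read 6.33, 5.95 and 6.24 against 6.28 and 6.31 (0.12 ± 0.14, adjusted p = 0.652). Trib3, a pseudokinase gene, stood at 6.02 on 4 arrays and at 6.21 on stimulated array 2. Against unstimulated array 3 alone the differences of Atf4 and Ddit3 turned to 0.05 and 0.10. In this group no gene stood apart between the groups of arrays. The promoters of Chac1 and Trib3 hold a match of TGATGNAA, as does that of Asns, and whether ATF4 acts on any of them here was not tested.

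The spread within the groups was unequal. Unstimulated levels of a gene covered a median range of 0.35 and up to 1.19 over 3 arrays, and stimulated levels a median of 0.14 and up to 0.43 over 2 arrays. Of the 34 genes, 13 were lowest of the unstimulated arrays on array 1, among them Psat1, Psph, Mthfd1, Shmt2 and Aldh18a1, and 14 on array 3, among them Asns, Mthfd2, Slc7a5, Got1 and Slc3a2. Unstimulated array 1 also had the highest summed levels of epithelial, endothelial and neutrophil markers, although single markers differed, such as Epcam (5.61, 5.61 and 5.99 unstimulated) and Ly6g, highest on the stimulated arrays (4.50 and 4.45). The summed linear level of 5 epithelial markers of 5 was 2810, 1750 and 620.0 on unstimulated arrays 1 to 3 and 307 and 415 on the stimulated ones. For 6 endothelial and stromal markers of 6 it was 1890, 1170 and 543 against 421 and 478, for 6 neutrophil and mast cell markers of 6 it was 1120, 618 and 325 against 105 and 115, and for 9 macrophage and dendritic cell markers of 9 it was 688, 605 and 427 against 354 and 325. None of these 26 genes was called by limma. At an unadjusted p under 0.05 stood 0 higher and 7 lower of them, against 2262 and 1711 of all 19938 genes. RMA levels have no zero. The highest single marker was the club cell gene Scgb1a1, at 11.17, 10.58 and 8.67 against 6.95 and 7.97. T cell markers, all 6 measured, summed to 2020, 2640 and 1600 against 1400 and 1080, of which Cd3g was the highest. The part of other cells in the levels given above was not tested, and in bulk samples fewer cells of a type and less RNA per cell cannot be told apart. Against unstimulated array 3 alone, where each of these 5 sums was the lowest of the unstimulated arrays, Bcat1 differed by 2.49, Asns by 2.83, Mthfd2 by 1.93, Shmt2 by 1.11, Psat1 by 1.27, Slc3a2 by -0.48, Slc38a2 by -0.65 and Glul by -1.13, with no call. Of 12 markers of natural helper cells 10 were measured, with medians of 10.67, 10.69 and 10.60 unstimulated and 9.87 and 9.90 stimulated. Of the 10, 5 fell (Rora, Id2, Il7r, Kit and Il17rb), against 0.963% of all genes. On both stimulated arrays 8 stood below all unstimulated ones (14.0% of all genes), Il2ra stood above them and Ptprc overlapped. Kit RNA read 9.88, 9.97 and 9.69 unstimulated, above the upper quartile of 7.07, although the cells were described with little or no c-Kit, its product.

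Calls among the 34 genes moved with the genes tested beside them. Restricted to the 10356 genes with a mean above the median of all probe sets, limma called 7.96% higher and 6.91% lower. Of the 34 genes 27 passed that limit. In that fit Slc1a5 (adjusted p = 0.0304), Asns (0.0315), Psat1 (0.0254) and Shmt2 (0.0460) were called higher and Glul (0.0169) lower. Bcat1 was called higher too, but it passed the limit only through its stimulated levels, so that call adds nothing. Restricted to the 7579 genes whose 5 values all differed, 20.4% were called higher and 15.3% lower. Of the 34 genes 23 remained there, and 10 were called higher, with Cth, Psph, Mthfd1, Mthfd2 and Aldh18a1 added to those 5, and 3 lower, with Slc3a2 and Slc38a2 added to Glul. That limit was set on the tested values themselves, and no gene of the 34 that it removed was called among all genes. The calls of that fit are therefore no added support. With all genes tested, centring each array on its median called Slc1a5 (adjusted p = 0.0376), Asns (0.0364), Psat1 (0.0323) and Cth (0.0407) higher beside Bcat1. Of all 19938 genes that fit called 597 higher and 542 lower, against 147 and 192 without centring. Quantile normalization called the same 4 (0.0234, 0.0427, 0.0279 and 0.0338 in that order). Of all genes it called 674 higher and 761 lower.

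Other genes of the same pathways came from lists chosen by function, whose counts of genes above or below all unstimulated arrays stand beside 18.6% and 14.0% of all genes. Their counts at an unadjusted p under 0.05 stand beside 2262 higher and 1711 lower of all 19938 genes. Of 28 other amino acid transporter genes, Slc7a8 fell and none rose, against 0.963% and 0.737% of all genes. Unadjusted, 4 were higher and 2 lower by limma. In that list 7 stood above and 2 below, and the median difference was 0.01 (0.00 to 0.02 without 1 array). Slc7a8 codes for LAT2, a further light chain of Slc3a2, and read 8.51, 8.56 and 8.31 against 6.95 and 7.01, a 2.79-fold fall (-1.48 ± 0.09 SE, adjusted p = 0.0323). That call held without unstimulated array 3 and was lost when any other array was left out, with adjusted p from 0.0668 to 0.109. Of 20 measured genes in a list of 23 for folate and carbon unit transfer, none was called by limma (7 higher and 0 lower at an unadjusted p under 0.05), 9 stood higher on both stimulated arrays than on all unstimulated ones and 1 lower, and the median was 0.19 (0.10 to 0.27 without 1 array). The highest levels belonged to the purine synthesis gene Atic, at 8.31, 8.35 and 8.92 against 9.38 and 9.57 (0.95 ± 0.24, adjusted p = 0.152), and the folate carrier gene Slc19a1, at 7.62, 7.45 and 7.66 against 7.93 and 8.11 (0.44 ± 0.10, adjusted p = 0.126). Tyms, named after its values were seen, codes for thymidylate synthase, which uses the folate carbon for DNA, and read 5.99, 6.05 and 6.27 against 7.22 and 7.11 (1.06 ± 0.11, adjusted p = 0.0510).

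Of 17 measured genes in a list of 21 for glutamine, glutamate, aspartate and proline, none was called by limma (7 higher and 1 lower unadjusted), 10 stood above and 1 below, and the median was 0.44 (0.33 to 0.46 without 1 array). Adss, of adenylate synthesis, read 10.11, 10.15 and 10.02 against 10.60 and 10.43 (0.42 ± 0.07, adjusted p = 0.0937), and Gmps, of guanylate synthesis, read 8.91, 8.77 and 9.07 against 9.53 and 9.30 (0.50 ± 0.13, adjusted p = 0.157). Of 10 measured genes in a list of 14 for methionine and glutathione, none was called by limma (1 higher and 1 lower unadjusted), 3 stood above and 1 below, and the median was 0.05. The highest levels of that list were those of Gclc, which codes for the catalytic subunit of the first step of glutathione synthesis (-0.58 ± 0.16, adjusted p = 0.182), and Txnrd1, a thioredoxin reductase gene (0.50 ± 0.10, adjusted p = 0.119). In the breakdown of branched-chain amino acids, downstream of Bcat1 and Bcat2, none of 14 genes was called by limma (6 higher and 2 lower unadjusted), 7 stood above and 3 below, and the median was 0.24 (0.12 to 0.31 without 1 array). The highest of them, Dld, which codes for a subunit shared by several dehydrogenase complexes, read 8.86, 8.94 and 9.07 against 9.53 and 9.42 (0.52 ± 0.08, adjusted p = 0.0826). Next in level, Ppm1k, whose phosphatase activates the branched-chain ketoacid dehydrogenase, read 7.42, 8.00 and 8.13 against 7.34 and 7.11 (-0.63 ± 0.27, adjusted p = 0.346).

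Of 18 measured genes in a list of 20 for the integrated stress response, Atf3 and Ppp1r15a fell and none rose. Of all genes 0.963% fell and 0.737% rose. In that list 4 stood above and 5 below all unstimulated arrays, against 18.6% and 14.0% of all genes, and the median was 0.02. At an unadjusted p under 0.05 by limma, 3 were higher and 3 lower. Atf3, a stress factor gene that is also induced early after cell activation, read 11.14, 10.65 and 10.95 against 8.78 and 8.68 (-2.19 ± 0.17 SE, adjusted p = 0.0406). Ppp1r15a, whose product helps to restart translation after stress, read 10.01, 10.01 and 9.51 against 6.82 and 7.24 (-2.81 ± 0.24, adjusted p = 0.0440). Both calls were lost whichever array was left out, with adjusted p from 0.0608 to 0.148, and the directions did not change. Of 22 genes for amino acid sensing by the kinase complex mTORC1, Fnip1, which codes for a partner of folliculin, fell from 9.34, 9.30 and 9.19 to 8.68 and 8.69 (-0.59 ± 0.06, adjusted p = 0.0479; 0.0508 to 0.162 with 1 array left out). None rose (3 higher and 2 lower unadjusted), 8 stood above and 3 below, and the median was 0.08.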

How the data were processed

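RNA of 5 sorted samples was turned into biotin-labelled cRNA, from 6 ug of total RNA, and each was hybridised to a 1-colour Affymetrix array, per the labels' protocols. The authors deposited log2 values from RMA, per the submitters' processing notes; its version and the arrays normalized together are not given in the sources used here. Array medians were 5.63 to 5.66. There were no detection calls, and precision is limited by having 5 arrays. Probe sets were named through the platform's annotation (21789 of 35556 with 1 symbol), and a gene was read from its brightest probe set, by mean. Of the 34 genes, 11 had a value repeated between arrays to 5 decimals, as had 62.0% of all genes, which makes some variances very small. Groups and replicate numbers came from the titles. limma 3.58.1 in R 4.3.3 (lmFit, eBayes; 3 residual and 0.649 prior degrees of freedom) was fitted to all 19938 genes without a filter and tested on simulated data, and exact permutation tests used SciPy 1.17.1. Plots used matplotlib 3.10.9. All 35 genes could be named; of each other list, up to 4 called genes, or else the 2 with the highest mean. The members, lists and tests were chosen with earlier results of these data known. Alternatives were other variance models, array weights, filters, other probe set summaries, further normalization, a block for the replicate number, and omission of each array; a comparison against unstimulated array 3 alone was added after seeing the data.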

Additional observations from a re-analysis of the deposited data

How the results depend on the processing

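Bcat1 kept its direction under all 14 alternatives and was called under 10 (differences from 2.4 to 2.57), 1 of which, the fit among genes above the median level, it entered only through its stimulated levels. Glul kept its direction under all 14 and was called under 7. Over all genes, limma called 147 higher and 192 lower; these became 68 and 105 with an intensity trend and robust variances, 824 and 716 among genes above the median level, 597 and 542 after median centring, 674 and 761 after quantile normalization, and 1548 and 1161 among genes with 5 different values. Against unstimulated array 3 alone they were 0 and 0 (3739 genes at an unadjusted p under 0.05, and 3973 in the reported comparison). Omitting 1 array gave 0 to 361 higher and 0 to 413 lower, with 0 in both directions on omitting unstimulated array 2 (3024 unadjusted), 2 and 5 on omitting array 1 and 45 and 43 on omitting array 3 of that group; omitting stimulated array 1 gave 343 and 208, and array 2 gave 361 and 413; in every such fit a group has 1 or 2 arrays, and a lone array is assumed to vary like the other group. Of the 34 genes, 5 were called higher among genes above the median level, after median centring and after quantile normalization, 10 among genes with 5 different values (and 3 lower), 0 against unstimulated array 3 alone (and 0 lower), and 0 to 2 without 1 array (0 to 1 lower); 0 were lower with the trend. The additional calls without stimulated array 1 or 2 were Trib3 (0.18) and Slc43a1 (0.13), each with equal values on 4 arrays. The cause of these shifts was not tested. Fewer genes entered the filtered fits and fewer arrays those that left arrays out. The fits with a trend, median centring or quantile normalization used all genes and all 5 arrays. With the replicate number as a block, which labels do not tie to a shared mouse or day and which 2 numbers only share (correlations of deviations -0.145 and -0.058), limma called 0 genes higher and 0 lower (3568 unadjusted), and 0 and 0 of the 34. The block left a median of 0.19 over the 34 genes, -0.03 in the SLC7, SLC3 and SLC43 group and 1.15 for mitochondrial folate, and turned Slc7a5 to -0.12, Got1 to -0.26 and Mthfd2 minus Mthfd1 to -0.01. Among genes with 5 different values the median was 0.39 over the members left, 0.01 in the SLC7, SLC3 and SLC43 group, 0.01 in the SLC1 and SLC38 group, 1.01 for cytosolic folate (Mthfd1 alone), 0.87 for transsulfuration (Cth alone) and -0.11 for the ATF4 group; among genes above the median level it was 0.33 and 0.04 for the carrier groups. Against unstimulated array 3 alone cytosolic folate had 0.49 and mitochondrial folate 1.11, and Slc7a11 (0.14), Atf4 (0.05), Ddit3 (0.1), Got1 minus Got2 (0.44) and Slc7a5 minus Slc43a2 (0.52) turned sign. Slc38a1 turned to -0.05 with the mean of its probe sets and -0.01 after quantile normalization, and Got1 to -0.04 after the latter. Without 1 array, the median of the 34 genes ran from 0.19 to 0.34, that of the SLC7, SLC3 and SLC43 group from -0.03 to 0.23, mitochondrial folate from 1.15 to 1.51, Slc7a5 from -0.12 to 0.4, Got1 from -0.26 to 0.33, Mthfd2 minus Mthfd1 from -0.01 to 0.63 and Slc7a5 minus Slc43a2 from -0.51 to 0.01.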
